A study of Mus musculus with 14 samples.

Results

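Pomc encodes pro-opiomelanocortin, and its RNA was measured in mouse embryos at E12.5, in entire heads with the brain, that carried or lacked Zcchc8. It is 1 of 67811 loci for which the authors deposited FPKM (a level scaled to locus length and to the fragments of the library). It is described with the 6 other loci whose coordinate ranges lie within 100 kb of it. The gene was chosen by its FPKM values in mutant and wild-type heads, whose difference was already known. Its own levels are therefore given as a description, without a test, and tests are kept for its neighbours and for the genes that act with it. The groups, all on the C57BL/6J strain, were Zcchc8-/- heads (KO, 6 libraries), Zcchc8+/- heads (HET, 3 libraries) and Zcchc8+/+ heads (WT, 5 libraries), with stranded libraries made from messenger RNA. The sources used here do not say which part of Zcchc8 is altered, or whether every library came from a separate embryo. The p-values therefore measure the spread between these samples. Each group holds libraries of both sexes by their RNA, so none comes from a single embryo, but part of the spread may be technical.

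POMC is a precursor protein. Prohormone convertases cut it into several peptides, among them adrenocorticotropin (ACTH), the melanocyte-stimulating hormones and beta-endorphin. Corticotrophs of the anterior pituitary release ACTH to drive the adrenal cortex, and neurons of the arcuate nucleus of the hypothalamus release alpha-melanocyte-stimulating hormone, which restrains feeding through the receptor MC4R. ZCCHC8 holds together the nuclear exosome targeting (NEXT) complex, which passes short-lived nuclear RNA to the RNA exosome for decay.

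Zcchc8 RNA followed the genotype labels, with means of 15.5 ± 3.91 FPKM in KO (SD, n = 6), 25.7 ± 1.64 in HET (SD, n = 3) and 39.7 ± 2.32 in WT (SD, n = 5). RNA of the locus was still measured in KO heads, and the KO minus WT difference was -1.39 on the log2 scale (limma-trend adjusted p = 2.1e-06). The HET minus WT difference was -0.62 (limma-trend unadjusted p = 0.00356), and every HET library lay below every WT library. This difference was not called after adjustment over all loci, so a lack of calls in HET against WT does not show equal levels. Zcchc8 lies on chromosome 5 and Pomc on chromosome 12. The files hold no counts, so total depth is unknown, and the steps between the lowest FPKM values put relative depth at 1.15 to 1.50 in KO, 1.23 to 1.32 in HET and 1 to 1.20 in WT libraries.

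The Pomc locus of the files runs from 3954951 to 3960848 on chromosome 12 (mm10). GENCODE M21, which uses that build too, has the gene at 3954951 to 3960642 on the plus strand. It has 5 annotated transcripts, and 3 of them hold the full coding sequence of 705 bases in 3 or 4 exons. The values cover the whole locus, so where along it the fragments fall cannot be read from them. The 256 bases before the Pomc start are shown, because the promoter is what the gene's own transcription begins from (chr12:3954695-3954950, plus strand, RefSeq, GRCm38.p6). Capitals mark a TATAAA at position -31 and 2 matches to CANNTG at positions -206 and -153, counted back from the start.
Pomc: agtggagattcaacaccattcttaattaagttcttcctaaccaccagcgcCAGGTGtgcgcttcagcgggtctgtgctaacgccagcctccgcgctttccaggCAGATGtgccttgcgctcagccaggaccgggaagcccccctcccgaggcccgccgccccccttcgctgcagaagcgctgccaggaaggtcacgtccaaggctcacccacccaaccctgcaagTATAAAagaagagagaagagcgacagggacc
The letters of a TATA box, TATAAA, occurred on either strand in 12.6% of 32851 promoter entries over the same number of bases, and CANNTG, the letters of an E-box, in 67.2%. The letters TCACACC of a T-box site had no match in this window on either strand and were found in 3.45% of the entries. For bicoid-type sites, the letters TAATCC had no match here and were in 6.37% of the entries. The variant TAAGCC had no match either and was in 8.31%. Bases farther upstream than these 256 were not searched, so sites for these factors may lie there. The motifs searched do not overlap one another here. The window held 60.5% G and C, against a median of 52.3% over all entries.

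Pomc RNA was several times as abundant in KO heads as in HET or WT heads, and HET and WT heads overlapped. The KO libraries KO1 to KO6 had 18.5, 17.3, 16.4, 19.0, 20.9 and 19.5 FPKM. The HET libraries HET3 to HET5 had 2.14, 2.43 and 2.53 FPKM. The WT libraries WT1 to WT5 had 2.50, 2.14, 1.93, 2.97 and 2.26 FPKM. Every KO library lay above every other library, and the lowest of them, KO3, was 5.53 times the highest HET or WT library, WT4. Group means were 18.6 ± 1.59 FPKM in KO (SD, n = 6), 2.37 ± 0.200 in HET (SD, n = 3) and 2.36 ± 0.397 in WT (SD, n = 5). The KO mean was 7.88 times the WT mean and 7.85 times the HET mean, and the HET mean was 1.004 times the WT mean. In order of level, KO stood first, and HET and WT could not be ranked beyond their spread. In whole heads, more cells of a type and more RNA per cell cannot be told apart.

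**Figure D1:**
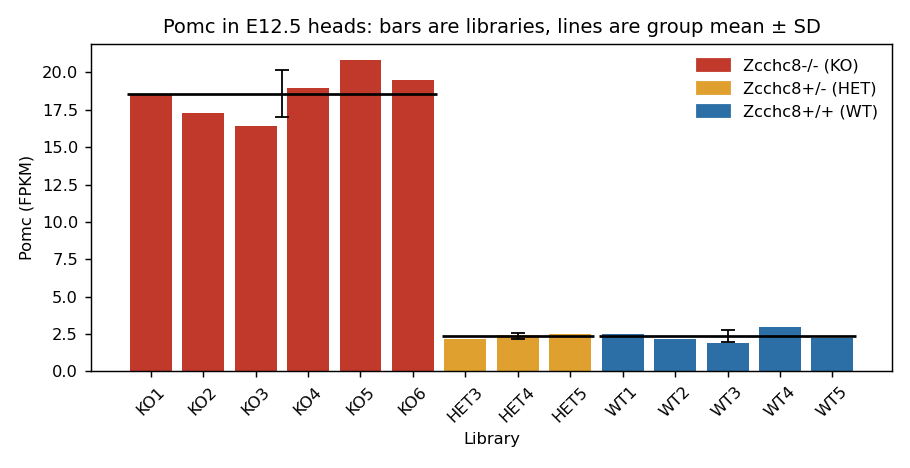
Pomc level in FPKM (vertical axis) in each of the 14 libraries (horizontal axis, KO, HET, WT). Bars are single libraries, and lines with error bars are group means ± SD. The 6 KO libraries sit between 16.4 and 20.9 FPKM, and all HET and WT libraries between 1.93 and 2.97 FPKM.

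Within a genotype the libraries varied little. The coefficient of variation was 8.58% in KO, 8.46% in HET and 16.8% in WT, and the highest KO library was 1.27 times the lowest. On the log2(FPKM + 0.1) scale used for all tests, the difference of the means was 2.94 for KO minus WT, 0.02 for HET minus WT and 2.92 for KO minus HET. The same separation of KO was seen in both sexes, which were read from Xist and Y-linked RNA. Female heads averaged 19.5 FPKM in KO (n = 4), 2.48 in HET (n = 2) and 2.20 in WT (n = 2), and male heads 16.8 in KO (n = 2), 2.14 in HET (n = 1) and 2.46 in WT (n = 3). In the authors' matrix of quantile-normalized log2 FPKM values, Pomc averaged 4.33 in KO, 1.16 in HET and 1.07 in WT. The KO minus WT difference there was 3.25, in a matrix where the median of all tested loci is shifted by 0.205.

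Among all 11543 tested protein-coding loci with a single name, Pomc was 92nd by its KO minus WT difference, and 243 loci had a difference of at least 2 on the log2 scale. The rank was higher among loci that were already expressed in WT. Among the 10090 of these loci with a WT mean of at least 1 FPKM, Pomc had the 3rd largest KO minus WT difference. Of these, 6 had a difference of at least 2, and 42 (0.416%) had one of at least 1. The 2 loci ahead of Pomc, Bmpr2 (3.42) and Pcif1 (3.03), are secondary loci that carry the name of a gene also listed at a higher-level locus. Among the 8385 of the 10090 loci whose name stands on 1 locus alone, Pomc had the largest difference, ahead of Cmbl (2.59). In the band of 1 to 5 FPKM in WT, 2317 coding loci had a median difference of -0.095 and a 99th percentile of 1.29. By its group mean, Pomc stood at the 65.8th percentile of the 11543 loci in KO, the 22.4th in HET and the 22.2nd in WT.

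**Figure D2:**
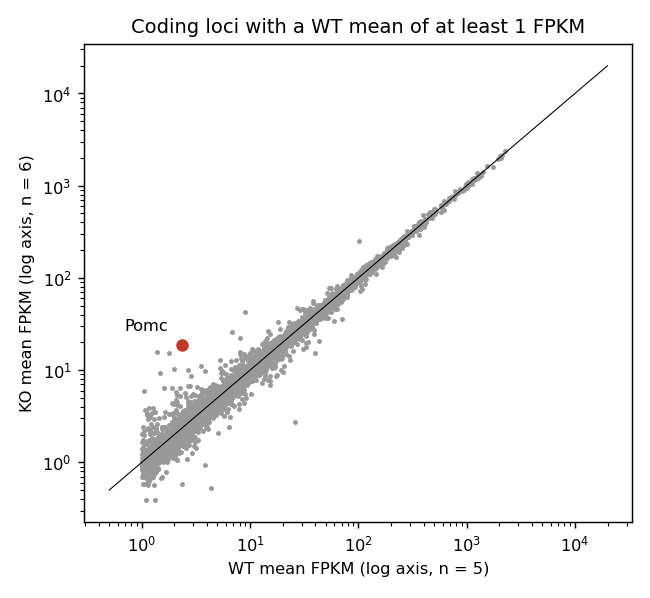
KO mean FPKM (vertical log axis, n = 6) against WT mean FPKM (horizontal log axis, n = 5) for the 10090 coding loci with a WT mean of at least 1 FPKM, 1 point a locus, with the line of equal levels. Pomc, in red, lies at 18.6 against 2.36 FPKM, far above the line.

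Pomc stood higher among neuropeptide precursors in KO than in HET or WT. Set beside the 16 genes of the precursor list by FPKM, it ranked 3rd in KO, 8th in HET and 8th in WT. That list leaves out Npy and Cartpt, which stand among the hypothalamus markers, and with both added Pomc ranked 3rd in KO, 10th in HET and 10th in WT. The neighbours named next are those within the 16. In KO its neighbours in the order were Sst, which encodes somatostatin, at 20.0 FPKM (12.52 to 27.2) and Pnoc, which encodes prepronociceptin, at 6.68 (5.50 to 8.71). Pomc (16.4 to 20.9) overlapped Sst there and lay above every value of Pnoc. In HET it stood between Cck (3.34 FPKM) and Nts (2.12 FPKM). In WT its neighbours were Cck, which encodes cholecystokinin, at 3.29 FPKM (2.54 to 4.12) and Nts, the neurotensin gene, whose locus is shared with Rassf9, at 2.15 (1.76 to 2.46). Pomc (1.93 to 2.97) overlapped both. Penk, the precursor of the enkephalins, ranked 1st throughout with 52.4 FPKM in KO, 58.5 in HET and 60.5 in WT.

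The 2 tested loci beside Pomc had lower means in KO than in WT, and neither was called. Of the 6 loci within 100 kb, 2 passed the filter on low values (at least 0.5 FPKM in at least 3 libraries) and were tested with limma-trend. Of these 2, 0 were called in KO against WT at an adjusted p under 0.05, and 1 had an unadjusted p under 0.05. Of all tested loci 24.6% were called, and a count over 2 loci is too small to set apart from that share. Efr3b, which encodes a membrane anchor of a phosphatidylinositol kinase, ends 1.9 kb beyond the end of Pomc and is transcribed towards it. It had 15.9, 19.0, 15.4, 14.7, 16.3 and 14.7 FPKM in KO1 to KO6, 19.9, 17.8 and 17.3 in HET3 to HET5, and 17.3, 17.6, 19.8, 17.5 and 17.0 in WT1 to WT5. All KO libraries but KO2 lay below every WT library, and KO2 lay within the WT range. The log2 difference was -0.16 (SE 0.07, limma-trend adjusted p = 0.113), the opposite direction to Pomc. Without KO2, the adjusted p of Efr3b was 0.0131. Dnmt3a, a de novo DNA methyltransferase gene 40.5 kb before Pomc, averaged 49.2 ± 6.46 FPKM in KO (SD, n = 6), 54.2 ± 2.18 in HET (SD, n = 3) and 52.9 ± 2.17 in WT (SD, n = 5), with overlapping groups (KO minus WT -0.11, SE 0.08, limma-trend adjusted p = 0.338). In the authors' matrix both differences were slightly positive, at 0.07 for Efr3b and 0.01 for Dnmt3a, below the shift of all loci there.

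The other 4 loci in the window did not pass the filter. RP23-9D1.2, 22.9 kb before Pomc, was listed at 0 in every library. Dnmt3aos, antisense to Dnmt3a, reached 0.0987 FPKM in KO3, and RP23-168O9.4, which has the coordinate range of Efr3b in the files, reached 0.0688 in KO6, and both were listed at 0 in all HET and WT libraries. The strand setting of the counting is not stated, so reads of a gene and of its antisense partner may be mixed. The single unnamed locus, 124 bases long and 34.3 kb before Pomc, had 28.4 FPKM in KO5 and was listed at 0 in the other 13 libraries. A locus this short reaches a high FPKM from few fragments. No other unnamed locus lay in the window.

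Farther out, the nearest called loci were lower in KO. Just outside the window, RP23-6C18.3 at 116.6 kb was listed at 0 throughout. The locus of Adcy3 and Dnajc27, whose range begins 121.4 kb beyond Pomc, fell to 10.3 ± 0.646 FPKM in KO (SD, n = 6), against 12.02 ± 0.998 in WT (SD, n = 5; log2 -0.22, limma-trend adjusted p = 0.0180). Adcy3 encodes an adenylyl cyclase. Dtnb, the dystrobrevin beta gene, 164.5 kb before Pomc, fell to 14.6 ± 1.10 FPKM in KO, against 16.8 ± 1.17 in WT (log2 -0.20, limma-trend adjusted p = 0.0277). The nearest other loci that rose in KO lay 382.6 kb before and 4639.1 kb after Pomc, with 2 and 21 tested loci in between, and both were unnamed. In HET against WT, 0 of the 2 tested neighbours were called by limma-trend and 0 had an unadjusted p under 0.05 (0.00549% of all tested loci called). In KO against HET, 0 of 2 were called, 1 had an unadjusted p under 0.05, and 22.3% of all tested loci were called.

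**Figure D3:**
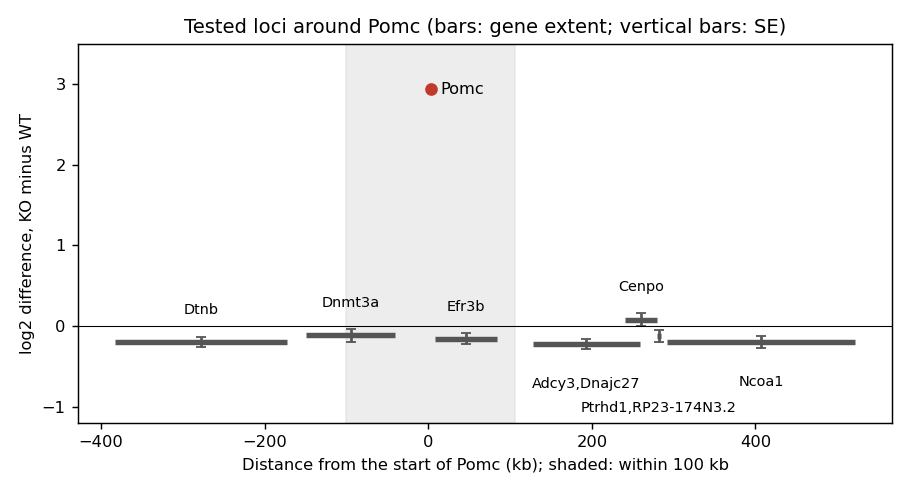
log2 difference, KO minus WT (vertical axis), for Pomc (red) and the 7 tested loci whose coordinate range comes within 250 kb of it. The horizontal axis is the distance in kb from the Pomc start. By gene position Ptrhd1 (273.4 kb) and Ncoa1 (286.7 kb) lie beyond 250 kb. Horizontal bars are the extents of the genes, vertical bars the SE, and the shaded band is the 100 kb window. Pomc stands at 2.94 and its neighbours lie between -0.22 and 0.08.

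None of the tested pituitary markers differed as much as Pomc did. Of 16 markers of the pituitary primordium and of corticotrophs, 8 passed the filter, and limma-trend called 1 higher and 0 lower in KO against WT (1 and 0 at an unadjusted p under 0.05). Their median difference was 0.10, beside -0.002 over all tested loci. Of all tested loci 24.6% were called, 19.0% higher and 5.61% lower, and of single-name coding loci 14.4%. With 8 genes the count is too small to set apart from these shares. The called gene was Gata2, a factor of thyrotroph and gonadotroph cells that many other tissues also express, at 13.2 ± 1.22 FPKM in KO (SD, n = 6), against 11.5 ± 0.666 in WT (SD, n = 5; log2 0.20, SE 0.07, adjusted p = 0.0338). Its adjusted p lay between 0.0520 and 0.0988 without any 1 of WT2, WT3, WT4, WT5, KO1, KO2 or KO6. Lhx3, which the pituitary primordium needs to grow, averaged 1.10 ± 0.441 FPKM in KO, 0.992 ± 0.268 in HET and 1.08 ± 0.163 in WT, with overlapping libraries.

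Pitx1, an activator of Pomc transcription that oral ectoderm and jaw mesenchyme also express, varied widely among KO heads. Its locus, shared with RP23-44N12.3, had 7.74, 4.15, 11.99, 22.2, 26.0 and 26.4 FPKM in KO1 to KO6, between 18.7 and 19.8 in HET and between 10.6 and 21.1 in WT. KO libraries lay both below and above the WT range, while Pomc varied 1.27-fold over the same KO libraries. The difference of Pitx1 was -0.27 (SE 0.44, limma-trend adjusted p = 0.725). Six6, a factor of the pituitary and the eye, had 1.73 ± 0.477 FPKM in KO (SD, n = 6), against 1.42 ± 0.256 in WT (SD, n = 5; log2 0.24, limma-trend adjusted p = 0.342). Cga, the alpha subunit of the pituitary glycoprotein hormones, had 0.716 ± 0.225 FPKM in KO, against 0.582 ± 0.315 in WT (log2 0.38, limma-trend adjusted p = 0.492). Without any 1 library the difference of Cga was 0.03 to 0.56, lowest without WT3, and that of Six6 was 0.13 to 0.34, lowest without KO1.

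Markers of hormone cells were at low levels or at 0. Tbx19, the corticotroph factor that activates Pomc, lay between 0 and 0.157 FPKM in KO, between 0.00990 and 0.0679 in HET and between 0.0106 and 0.0454 in WT. Pou1f1, a factor of other hormone cells, reached at most 0.0219 FPKM in KO, 0.0396 in HET and 0.0354 in WT, and Gh, the growth hormone gene, was listed at 0 in all libraries. Lhb, the luteinizing hormone beta gene, was below the filter but above 0 in every library, at 0.140 to 0.620 FPKM in KO, 0.303 to 0.433 in HET and 0.369 to 0.492 in WT. Hesx1, a repressor of early forebrain and pituitary, was below the filter and was singled out after its values were seen. It had 0.485, 0.206, 0.391, 0.435, 0.351 and 0.277 FPKM in KO1 to KO6, 0.196, 0.0775 and 0.218 in HET3 to HET5, and 0.109, 0.140, 0.185, 0.0751 and 0.119 in WT1 to WT5. Every KO library lay above every WT library, and KO and HET overlapped. With no filter its difference was 1.01 (SE 0.21, limma-trend adjusted p = 0.00535), and it was the only 1 of 25 list members below the filter that was called then, where 11.5% of all 47204 loci were called. The summed level of the pituitary markers was 34.7 to 59.6 FPKM in KO, 48.9 to 49.6 in HET and 39.2 to 53.9 in WT. Over single-name loci, without Pitx1, it was 29.1 to 33.2 in KO, 29.6 to 30.8 in HET and 28.2 to 32.8 in WT.

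Markers of the arcuate nucleus and tuberal hypothalamus differed by less than 1 on the log2 scale. Of 18, 17 passed the filter, and limma-trend called 3 higher and 1 lower in KO against WT, with a median difference of 0.01. That is near the share over all tested loci, where 24.6% were called, 19.0% higher and 5.61% lower. Of single-name coding loci 14.4% were called. With 17 genes the count is too small to set apart from either share, so it is not read as a result about these markers. Nhlh2, a basic helix-loop-helix factor of developing neurons that acts in POMC neurons of the hypothalamus, rose in KO. It had 46.3, 44.1, 46.0, 47.4, 45.8 and 43.5 FPKM in KO1 to KO6, 30.1, 31.0 and 32.1 in HET3 to HET5, and 30.9, 30.1, 34.3, 27.3 and 31.8 in WT1 to WT5. All KO libraries lay above all others, and the log2 difference was 0.56 (SE 0.05, limma-trend adjusted p = 3.4e-07). Otp, a factor of hypothalamic neuroendocrine neurons, was at 16.8 ± 2.25 FPKM in KO, against 13.3 ± 1.28 in WT (log2 0.32, adjusted p = 0.0224, and 0.0616 without WT2, 0.0567 without WT4 and 0.0549 without WT5). Cartpt, whose peptide arcuate POMC neurons also make, was at 5.51 ± 1.16 FPKM in KO, against 4.13 ± 0.493 in WT (log2 0.39, adjusted p = 0.0483). Its call was lost without any 1 of 10 libraries, WT1, WT2, WT4, WT5, HET4, KO1, KO2, KO4, KO5 and KO6, with adjusted p between 0.0587 and 0.121.

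Npy, the gene of neuropeptide Y, which neurons that oppose the POMC neurons release, fell in KO. It had 3.52, 4.14, 3.95, 3.22, 5.93 and 3.74 FPKM in KO1 to KO6, 9.97, 7.59 and 5.50 in HET3 to HET5, and 5.96, 8.12, 8.44, 7.09 and 5.63 in WT1 to WT5. The groups overlapped through KO5 alone, which lay between the WT libraries. The log2 difference was -0.78 (SE 0.17, limma-trend adjusted p = 0.00238, and 0.150 in the authors' matrix). Npy is also made by many neurons outside the arcuate nucleus. Nkx2-1, which the ventral hypothalamus needs, averaged 13.3 ± 2.62 FPKM in KO, 12.51 ± 0.0998 in HET and 12.8 ± 1.96 in WT. Isl1, a factor that Pomc neurons require, averaged 16.7 ± 1.24 FPKM in KO, 19.7 ± 2.27 in HET and 18.2 ± 1.71 in WT (KO minus WT -0.12, limma-trend adjusted p = 0.269). Rax, a factor of the hypothalamic floor and retina, averaged 1.52 ± 0.359 FPKM in KO, 1.35 ± 0.397 in HET and 1.23 ± 0.133 in WT (KO minus WT 0.26, adjusted p = 0.320). The summed level of the hypothalamus markers over single-name loci was 123 to 144 FPKM in KO, 117 to 124 in HET and 113 to 129 in WT. Nhlh2 alone averaged 45.5 FPKM in KO, 31.1 in HET and 30.9 in WT. Its rise therefore weighs heavily in the sum, which is no measure of hypothalamus content. The Bsx locus is left out of this sum because it is shared with the abundant Hspa8. The part of these markers in the Pomc levels was not tested.

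Of 8 genes for enzymes that process POMC and their partners, 7 passed the filter, and limma-trend called 0 higher and 2 lower in KO against WT (1 and 3 at an unadjusted p under 0.05), with a median difference of -0.16. Over all tested loci 19.0% were called higher and 5.61% lower, and 14.4% of single-name coding loci were called in either direction. In KO against HET, 4 of these 7 were called, namely Pcsk2, Cpe, Pam and Ctsl, all lower in KO. Of all tested loci 22.3% were called in that comparison. With 7 genes the counts are too small to set apart from these shares. Pcsk1, the convertase that releases ACTH, was below the filter, at 0.320 to 0.489 FPKM in KO, 0.354 to 0.549 in HET and 0.322 to 0.567 in WT. Pcsk2, the convertase that trims further to the melanocyte-stimulating hormones, averaged 3.46 ± 0.540 FPKM in KO, 4.57 ± 0.277 in HET and 4.15 ± 0.447 in WT (KO minus WT -0.26, limma-trend adjusted p = 0.0811, and 0.0130 without KO2). Cpe, the carboxypeptidase that removes the exposed basic residues, was at 130 ± 13.1 FPKM in KO, against 149 ± 9.14 in WT (log2 -0.20, adjusted p = 0.0360). Without any 1 of WT2, WT3, WT4, KO1, KO4, KO5 or KO6 its adjusted p was 0.0503 to 0.0978. Pam, which amidates peptides and shares its locus with RP23-178F20.1, was at 28.3 ± 1.80 FPKM in KO, against 31.5 ± 1.81 in WT (log2 -0.15, adjusted p = 0.0402). Without any 1 library other than WT1, KO2 or KO3 its adjusted p was 0.0531 to 0.112. Prcp, a carboxypeptidase that inactivates alpha-melanocyte-stimulating hormone, had a positive difference of 0.13 (limma-trend adjusted p = 0.0831), and was called higher without KO2 (0.16, adjusted p = 0.0231) and in the authors' matrix (0.40, adjusted p = 0.00012), where the median over all tested loci was 0.205.

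Receptors of the POMC peptides were low in every genotype. Of 13 genes for melanocortin and opioid receptors and their partners, 3 passed the filter, and limma-trend called 1 higher and 0 lower (2 and 0 at an unadjusted p under 0.05), with a median difference of 0.13. The shares called were 19.0% higher and 5.61% lower over all tested loci, and 14.4% in either direction over single-name coding loci. A count over 3 genes cannot be judged against them. The called gene was Mc4r, the brain receptor of alpha-melanocyte-stimulating hormone. It had 0.857, 0.916, 1.05, 1.20, 1.10 and 0.991 FPKM in KO1 to KO6, 1.15, 0.937 and 0.832 in HET3 to HET5, and 0.633, 0.672, 0.676, 0.819 and 0.771 in WT1 to WT5. Every KO and every HET library lay above every WT library. Mc4r was 0.46 higher on the log2 scale in KO than in WT (SE 0.12, limma-trend adjusted p = 0.00943). The HET minus WT difference was 0.39, with an adjusted p of 1. After quantile normalization the KO minus WT difference of Mc4r was -0.24, and in the authors' matrix its adjusted p was 0.113. Agrp, whose peptide blocks the melanocortin receptors, shares a locus with Atp6v0d1 and RP24-242N1.1, so its own level cannot be read (log2 0.13, limma-trend adjusted p = 0.138, and 0.0499 without KO3). Atrn, which encodes attractin, a partner of melanocortin signalling, differed by 0.05 (adjusted p = 0.637). Mc2r, the ACTH receptor, reached at most 0.0116 FPKM in KO, 0.0357 in HET and 0.0201 in WT.

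No gene that stimulates or restrains Pomc was called higher. Of 15, 11 passed the filter, and limma-trend called 0 higher and 1 lower in KO against WT (0 and 3 at an unadjusted p under 0.05), with a median difference of -0.14. Beside this, 19.0% of all tested loci were called higher and 5.61% lower, and 14.4% of single-name coding loci in either direction. The count over 11 genes is too small to set apart from these shares. Stat3, which carries leptin and cytokine signals to Pomc, was at 11.5 ± 0.530 FPKM in KO, against 12.7 ± 0.391 in WT (log2 -0.14, adjusted p = 0.0328). Without WT2, WT3, KO2, KO4 or KO6 its adjusted p was 0.0505 to 0.0866, and in the authors' matrix the difference was 0.145. Nr3c1, the glucocorticoid receptor through which glucocorticoids restrain Pomc, was at 3.49 FPKM in KO, against 4.02 in WT (log2 -0.20, limma-trend adjusted p = 0.0797, and 0.0102 without KO3). Hes1, a Notch effector that holds progenitors back from becoming Pomc cells, was at 21.1 FPKM in KO, against 23.9 in WT (log2 -0.19, adjusted p = 0.117, and 0.0491 without KO6). Neurod1, an activator of Pomc in corticotrophs that shares its locus with Cerkl, averaged 10.4 ± 0.943 FPKM in KO and 10.4 ± 1.18 in WT.

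Among the 16 other neuropeptide precursors, 12 passed the filter, and limma-trend called 0 higher and 2 lower in KO against WT (0 and 3 at an unadjusted p under 0.05), with a median difference of -0.29. For comparison, 19.0% of all tested loci were called higher and 5.61% lower, and 14.4% of single-name coding loci in either direction. With 12 genes the count is too small to set apart from these shares. Gal, the galanin gene, fell. It had 3.11, 2.63, 2.56, 1.91, 3.35 and 2.92 FPKM in KO1 to KO6, 5.53, 4.98 and 4.71 in HET3 to HET5, and 4.29, 4.15, 3.87, 5.48 and 3.12 in WT1 to WT5. KO lay below every HET library and overlapped WT only through KO5 and WT5. The log2 difference was -0.59 (SE 0.145, limma-trend adjusted p = 0.00628, and 0.484 in the authors' matrix). Cck was at 2.14 ± 0.702 FPKM in KO, against 3.29 ± 0.764 in WT (log2 -0.63, adjusted p = 0.0398, and 0.0513 to 0.107 without any 1 of WT1, WT3, WT4, HET3, KO1, KO3 or KO4). Tac1, the substance P precursor, had a difference of -0.29 (adjusted p = 0.0617), with an adjusted p of 0.0124 without WT1 and 0.0307 without KO5. The other opioid precursors, Penk (log2 -0.20, adjusted p = 0.160), Pdyn (-0.235, 0.338) and Pnoc (-0.10, 0.528), were not called. Over the 6 lists, 0 genes were called in HET against WT by limma-trend, and 1, Mc4r, had an unadjusted p under 0.05. In HET against WT, 0.00549% of all tested loci were called. Zcchc8 itself was not among them, so 0 calls do not show equal levels. In KO against HET, 0 receptors, 0 pituitary markers, 4 hypothalamus markers, 1 stimulation gene and 1 other precursor were called, beside 22.3% of all tested loci.

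**Figure D4:**
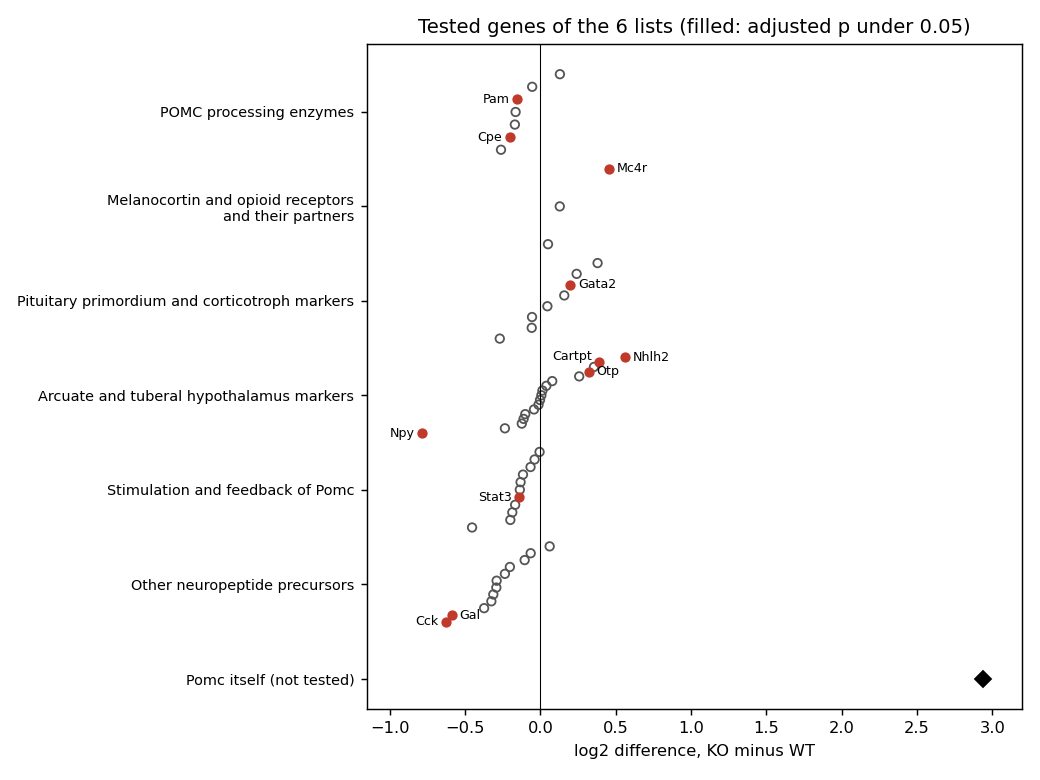
log2 difference, KO minus WT (horizontal axis), for the tested genes of the 6 lists (rows), 1 point a gene. Filled points with names have a limma-trend adjusted p under 0.05. The list members lie between -0.78 and 0.56, and the black diamond marks Pomc at 2.94.

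Likeness to Pomc was measured as Pearson's r of log2(FPKM + 0.1) over the 14 libraries, against 14057 tested loci with a single gene name. The highest were a secondary locus named Tmem39b (0.998), RP24-179P9.2 (0.997), RP24-142B15.11 (0.997), a secondary locus named Mlec (0.995) and 1700007L15Rik (0.994). An r above 0.95 was found for 643 loci. Pomc was chosen with its step between KO and WT known, so a high r largely restates that step. The secondary loci of Tmem39b and Mlec, and RP24-179P9.2, passed the filter through KO alone. All of the named loci are low in HET and WT and higher in KO. 1700007L15Rik, for example, averaged 31.5 FPKM in KO, 1.64 in HET and 1.60 in WT. With the genotype means taken off, the most alike were RP24-458J4.11 (0.900), RP24-142B15.11 (0.887), Haus4 (0.881), RP23-454A14.2 (0.873) and Adgra2 (0.869). These values share the libraries and their depth and are the highest of many, so they are a description.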

How the data were processed

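Polyadenylated RNA of whole E12.5 heads was measured in 14 libraries. The submitters' processing notes name TopHat2 2.1.0, Cuffdiff, Partek, FastQC 0.10.0, bcl2fastq and the mm10 build without their roles. The strand setting and the gene models are not stated there. The authors deposited FPKM values for 67811 loci per library, and a matrix of log2 FPKM values that had been quantile normalized (all columns share their quartiles) and is blank where the FPKM is 0. A listed 0 can also be a failed estimate. Loci of 1 bundle share a coordinate range, so distances by range are minimal ones. Coordinates are written from 1.

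Loci with at least 0.5 FPKM in at least 3 libraries (18217) were tested on log2(FPKM + 0.1), which understates changes of low loci. The test was limma-trend with robust moderation (limma 3.58.1, R 4.3.3), fitted once to the 14 libraries, with genotype as the sole term and with Benjamini-Hochberg adjustment over all tested loci and a threshold of 0.05. A list gene was read at the locus with the highest mean that carries its name, and 2 of the list genes, Mc1r and Asip, are not analysed here. Names in the text are Pomc, Zcchc8, the loci within 100 kb, the 3 smallest p of each list, other called members and markers near 0, and the 5 loci most like Pomc by each measure. Other list members named with values were added after their values were seen. The gene, the window and the lists were chosen with earlier results of these data known. Python 3.11.15 with pandas 2.3.3, numpy 2.4.6 and matplotlib 3.10.9 served for the rest, and gene extents came from GENCODE M21. Alternatives were other pseudocounts, filters, scalings and windows, the authors' matrix, sex as a covariate, only the compared groups, the replicate number as a block and leaving out each library.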

Additional observations from a re-analysis of the deposited data

Results flagged for a closer look

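In 46 groups of KO or WT values examined for Pomc and the named genes, 4 held a library far from the others, where chance flags about 1 group in 20. Pomc itself was not among them. Efr3b was at 19.0 FPKM in KO2, with the next KO library at 16.3, and at 19.8 FPKM in WT3, with the next WT library at 17.6. Npy was at 5.93 FPKM in KO5, with the next KO library at 4.14. Nr3c1 was at 4.18 FPKM in KO3, with the next KO library at 3.57.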

How the results depend on the processing

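Pomc was higher in KO under every alternative run. Its KO minus WT difference was 2.75 with a pseudocount of 0.5, 2.55 with 1 and 3.25 in the authors' matrix, and KO minus HET was 2.73, 2.54 and 3.17 there. Without any 1 library these were 2.87 to 3.02 and 2.85 to 2.97, and HET minus WT was -0.05 to 0.10. Within 250 kb by coordinate range, in place of 100 kb, 2 loci were called in KO against WT and 1 in KO against HET. The latter, Ncoa1, lies 286.7 kb from Pomc by gene position. Without any 1 library, 0 to 1 neighbours were called in KO against WT and in KO against HET, and 0 to 0 in HET against WT.

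The list counts were small and moved with the settings, and the cause was not tested. With no filter, 0 processing enzymes (2 before), 2 hypothalamus markers (4 before) and 1 other precursor (2 before) were called. The stricter filter left 1 processing enzyme and 0 receptors (1 before), because Mc4r did not pass it and was not tested. Scaling to a common median left 1 processing enzyme and 0 pituitary markers (1 before). Quantile normalization gave 0 receptors, 3 pituitary markers, 4 stimulation genes (1 before) and 7 other precursors, and turned Mc4r to -0.239, Six6 to -0.242 and Cga to -0.793. The authors' matrix gave 1 processing enzyme, which was Prcp and higher, 2 receptors and 8 hypothalamus markers. Against its median shift of 0.205 it turned Dnmt3a to 0.013, Efr3b to 0.071, Pcsk2 to 0.179, Pam to 0.011, Nr3c1 to 0.268, Stat3 to 0.145, Hes1 to 0.006 and Tac1 to 0.150. With sex as a covariate, 1 processing enzyme, 0 pituitary markers, 0 stimulation genes and 1 other precursor were called, and with only KO and WT in the fit 0, 0, 0 and 1. Without any 1 library the counts were 0 to 4 processing enzymes (4 without KO2, of which 1, Prcp, was higher), 1 to 2 receptors, 0 to 1 pituitary markers, 2 to 4 hypothalamus markers, 0 to 2 stimulation genes and 1 to 3 other precursors.

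Libraries with the same replicate number did not deviate together (r between -0.114 and 0.1 over loci). This gives no sign that the numbers pair the samples, but it cannot exclude it, because libraries with different numbers were not compared. The fit with the replicate number as a block called 0 processing enzymes, 0 pituitary markers, 2 hypothalamus markers and 1 other precursor. Depth is unknown, so values near 0 carry no interval.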

Other observations

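Some loci that resemble Pomc in their genotype pattern carry the name of a gene whose highest-level locus did not share it. Bmpr2, a receptor of bone morphogenetic proteins, had a secondary locus at 15.9 FPKM in KO, 1.55 in HET and 1.39 in WT, while its highest-level locus was at 13.7 FPKM in KO and 12.3 in WT. Pcif1 had a secondary locus at 15.2 FPKM in KO and 1.78 in WT, beside 29.0 in KO and 26.3 in WT at the highest-level one. For Tmem39b the secondary locus was at 6.00 FPKM in KO and 0.00921 in WT, and the highest-level one at 16.6 in KO and 16.8 in WT. For Mlec the values were 1.65 in KO and 0.205 in WT, and 61.9 in KO and 64.3 in WT. Pomc, Cmbl (9.35 FPKM in KO and 1.46 in WT), Gm9958 (10.3 FPKM in KO and 1.97 in WT) and Hist1h2ai (5.98 FPKM in KO and 1.05 in WT) each have 1 locus under their name.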
